A study of Mus musculus with 7 samples.

Results

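Muscle fibers conduct the action potential along their membrane through voltage-gated sodium channels, are brought back to rest mainly by a chloride conductance, and recover their ion gradients through the sodium pump. The levels of 6 genes of this system were examined in the RNA-seq of C2C12 myotubes after electrical pulse stimulation (EPS): Scn4a, Scn3b, Clcn1, Atp1b1, Atp1b2 and Fxyd1. They were chosen by their symbols, with earlier results of these data known, and all 6 were found among the 26607 listed genes. None of the 6 differed between the control and EPS groups beyond the spread between libraries. At 3 libraries against 4, a change of nearly 2-fold could not be told from no change for several of them.

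C2C12 is a mouse myoblast line that forms myotubes when serum is lowered. The control group holds 3 libraries of unstimulated myotubes, with replicate numbers 1, 3 and 4, and the EPS group holds 4, with numbers 1 to 4. In the EPS group, stimulation began after 3 days of differentiation, lasted 24 h and ended with 1 h of rest. All 7 libraries come from this single clonal line, without motor nerve, and the labels do not say whether the libraries of a group come from separate cultures, so p-values measure the spread between these libraries only.

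Levels are given as CPM, the reads of a gene scaled to a common library size. The recovered totals were between 16616917 and 22120641 reads, and 3 reads, taken as the smallest level that can be told from 0, were between 0.136 and 0.181 CPM. This covers counting error only. All 21 markers of differentiated myotubes were above 0 in every library, and their summed level was between 24052 and 29760 CPM in the control and between 17014 and 27043 CPM in the EPS group. The 8 cell cycle markers summed to between 284 and 387 CPM in the control and between 432 and 1257 CPM in the EPS group, with the highest value in EPS replicate 4, where the myotube sum was lowest. The 8 markers of myoblasts and muscle progenitors summed to between 1926 and 2660 CPM in the control and between 1398 and 1799 CPM in the EPS group, without overlap. Itga7 and Cdh15 made up most of this sum, with means of 1516 and 485 CPM in control and 1123 and 384 CPM in EPS libraries. The groups of Itga7 overlapped. Taken singly, 4 of the 8 did not overlap, where 10.6% of all genes did not. Pax7 was at -0.12 and Myf5 at 0.20 on the log2 scale (adjusted p = 0.869 and 0.862 from limma). At an unadjusted P under 0.05 in limma, 8 of 8 cell cycle markers were higher (8.4% of all genes), and 4 of 21 myotube markers and 4 of 8 myoblast markers were lower (3.21% of all genes). Myh4, a fast myosin, and Vcam1, an adhesion molecule, were also called, at -2.48 and -1.21 on the log2 scale (adjusted p = 0.108 and 0.0914 from limma). The nuclear RNAs Malat1 and Neat1 summed to between 3232 and 5077 CPM in the control and between 1820 and 3133 CPM in the EPS group. In bulk RNA, fewer cells of a type and less RNA per cell cannot be told apart. Control replicate 4 stood apart as well, with 359 genes at 1 to 5 reads where the other libraries had 2670 to 3181. For each of the 6 genes it held the lowest or the highest value of the control group.

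The pore of the sodium channel of adult skeletal muscle, Nav1.4, is encoded by Scn4a. Scn3b encodes an accessory beta subunit. Clcn1 encodes ClC-1, the main chloride channel of the fiber membrane, whose loss causes myotonia. The sodium pump is built of a catalytic alpha and a glycosylated beta subunit, here Atp1b1 and Atp1b2, and phospholemman, the product of Fxyd1, is a small membrane protein that restrains the pump of heart and skeletal muscle until it is phosphorylated.

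Among the 6 genes, Scn4a and Clcn1 are the channels known for mature skeletal muscle. Scn4a was among the abundant ones here and Clcn1 was the lowest, and the windows at their RefSeq starts are shown for that reason. RefSeq sequences on GRCm38.p6 were held for 4 of the 6 genes (Scn4a, Clcn1, Atp1b1 and Fxyd1), from 250 bases before to 50 bases after the annotated start, and the one of Clcn1 lies at chr6:42286435-42286734 on the plus strand and that of Scn4a at chr11:106349341-106349640 on the minus strand. Capitals mark the E-box letters CANNTG, a palindromic form that reads alike on both strands and that myogenic factors such as MyoD are known to bind.
Clcn1: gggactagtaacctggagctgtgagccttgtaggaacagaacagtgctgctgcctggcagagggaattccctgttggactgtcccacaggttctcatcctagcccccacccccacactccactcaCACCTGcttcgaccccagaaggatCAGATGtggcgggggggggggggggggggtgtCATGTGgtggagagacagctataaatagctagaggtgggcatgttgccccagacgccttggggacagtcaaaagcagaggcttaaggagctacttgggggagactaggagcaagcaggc
Scn4a: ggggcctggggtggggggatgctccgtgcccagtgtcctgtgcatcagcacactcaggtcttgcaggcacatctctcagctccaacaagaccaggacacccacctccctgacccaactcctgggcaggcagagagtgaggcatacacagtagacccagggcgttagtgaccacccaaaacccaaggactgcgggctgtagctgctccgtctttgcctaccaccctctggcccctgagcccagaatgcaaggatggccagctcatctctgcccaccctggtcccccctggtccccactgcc
The RefSeq starts used for Scn4a and Fxyd1 lie inside the gene as GENCODE M21 gives it, downstream of its outermost start, so other starts of these genes were not searched. From the start used for Scn4a the letters read gatggcc, which hold a start codon (atg). The window of Clcn1 held 3 matches, beginning 125, 101 and 69 bases before the start, and those of Scn4a, Atp1b1 and Fxyd1 held 0. The outermost starts of Scn4a (106353288) and Fxyd1 (31057199) lie outside their windows, so their counts of 0 do not describe the promoters there. Of 27025 RefSeq promoters of this length, 72.1% held at least 1 match and 17.5% held 3 or more, so both patterns are common. The window of Clcn1 also held 1 match to the MEF2 consensus (both strands searched), whose letters here include a TATA box. Such a match was present in 3.26% of all windows. None of the other 3 windows held one. A match is a run of letters, and binding was not measured.

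Scn4a (ENSMUSG00000001027.7, chromosome 11 of GRCm38 from 106318592 to 106353288, minus strand) was well covered, with 710 to 2510 reads in a library. In control replicates 1, 3 and 4 it was at 103, 77.8 and 67.9 CPM. In EPS replicates 1 to 4 it was at 68.8, 65.2, 115 and 37.7 CPM. The EPS group held both the highest and the lowest value of all libraries, and the groups overlapped. Control libraries had a mean of 83.0 ± 18.3 CPM (SD, n = 3), and EPS libraries one of 71.6 ± 31.9 CPM (SD, n = 4). The log2 fold change was -0.30 with a 95% interval from -1.05 to 0.46 (standard error 0.33, adjusted p = 0.785 from limma, with p = 0.60 in the exact permutation test). It came mainly from EPS replicate 4, without which it was -0.03, and it was -0.55 without EPS replicate 3. EPS replicate 4 was the library with the lowest sum of myotube markers and the highest sum of cell cycle markers, and the part of these in the level of Scn4a was not tested.

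Scn3b (ENSMUSG00000049281.16, chromosome 9 from 40269217 to 40291618, plus strand) was near 2 CPM in most libraries. It was at 2.16, 1.62 and 1.49 CPM in the control group and at 2.28, 2.39, 2.15 and 0.531 CPM in the EPS group, in the order of the replicate numbers. EPS replicates 1 and 2 lay above every control library, EPS replicate 3 lay just below control replicate 1, and EPS replicate 4, with 10 reads against 47 to 49 in the other EPS libraries, lay below every control library. The means were 1.76 ± 0.352 CPM (SD, n = 3) in control and 1.84 ± 0.876 CPM (SD, n = 4) in EPS libraries, so the difference had opposite signs in CPM and on the log2 scale. The log2 fold change was -0.02, with a 95% interval from -0.69 to 0.65 (adjusted p = 0.980 from limma). Without EPS replicate 4 it turned to 0.25 and still did not pass the test (adjusted p = 0.808 from limma).

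Clcn1 (ENSMUSG00000029862.15, chromosome 6 from 42286685 to 42315756, plus strand) was close to the limit of detection. The control libraries held 11, 8 and 0 reads and the EPS libraries 4, 5, 12 and 8. Only control replicate 4 was under the floor of 3 reads, and the groups overlapped. That library is the one with few genes at 1 to 5 reads, and the part of this in its 0 was not tested. In CPM the means were 0.374 ± 0.334 (SD, n = 3) in the control and 0.351 ± 0.166 (SD, n = 4) in the EPS group. The log2 fold change of CPM + 1 was -0.0017 (adjusted p = 0.997 from limma, p = 0.914 in the exact permutation test), on a scale that pulls such low levels toward no change, and with a pseudocount of 0.1 it was 0.29 (adjusted p = 0.873 from limma). Without control replicate 4 it was -0.22 (adjusted p = 0.561 from limma). At 0 to 12 reads in a library, its 95% interval on that scale, from -0.39 to 0.38, still includes a fall to nearly 0 reads. Exons of Clcn1 overlap those of Fam131b on the other strand, which had 123 to 279 reads in a library. The use of strand in counting is not given in the sources used here, so some of the few reads listed for Clcn1 may belong to Fam131b.

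Atp1b1 (ENSMUSG00000026576.12, chromosome 1 from 164437109 to 164458355, minus strand) encodes the beta 1 subunit, which brings the pump to the cell surface. It was at 48.1, 64.6 and 34.0 CPM in control replicates 1, 3 and 4. In EPS replicates 1 to 4 it was at 52.5, 61.2, 51.4 and 53.5 CPM. All 4 EPS libraries lay inside the range of the control group. Atp1b1 was the only one of the 6 genes with a higher value after EPS in limma, with a log2 fold change of 0.20, a 95% interval from -0.28 to 0.68 and an adjusted p of 0.776. That sign rested on control replicate 4, the lowest value, and without it the fold change was -0.03. It was 0.06 in edgeR, 0.05 in DESeq2, 0.10 after quantile normalization and 0.09 with median-of-ratios scaling. Atp1b1 shares exonic bases with Nme7 on the other strand, which had 219 to 476 reads in a library against 752 to 1257 for Atp1b1.

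Atp1b2 (ENSMUSG00000041329.13, chromosome 11 from 69599736 to 69605942, minus strand) encodes the beta 2 subunit, best known from glial cells. The control libraries were at 1.40, 1.26 and 2.71 CPM. The EPS libraries were at 1.40, 2.09, 1.00 and 0.531 CPM. The highest value was in control replicate 4 and the lowest in EPS replicate 4, with the other 5 libraries between 1.00 and 2.09 CPM. Its log2 fold change, -0.32, had a 95% interval from -0.94 to 0.30 (adjusted p = 0.714 from limma, with p = 0.343 in the exact permutation test). With both of these libraries left out, a choice made after the values were seen, it was 0.08. On the recovered reads, without the pseudocount, it was -0.64 in edgeR (adjusted p = 0.706).

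Fxyd1 (ENSMUSG00000036570.14, chromosome 7 from 31051678 to 31057199, minus strand) varied most among the 6 genes on the log2(CPM + 1) scale. It was at 0.641, 1.26 and 4.43 CPM in the control group, where the last value is that of control replicate 4. In EPS replicates 1 to 4 it was at 0.698, 3.22, 1.32 and 1.06 CPM. The high libraries, control replicate 4 with 98 reads and EPS replicate 2 with 66 reads, belong to different groups. The log2 fold change was -0.17, with a 95% interval from -1.16 to 0.82 (adjusted p = 0.890 from limma), and without control replicate 4 it turned to 0.33 (adjusted p = 0.770 from limma). edgeR gave -0.58 from the recovered reads (adjusted p = 0.761).

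**Figure D1:**
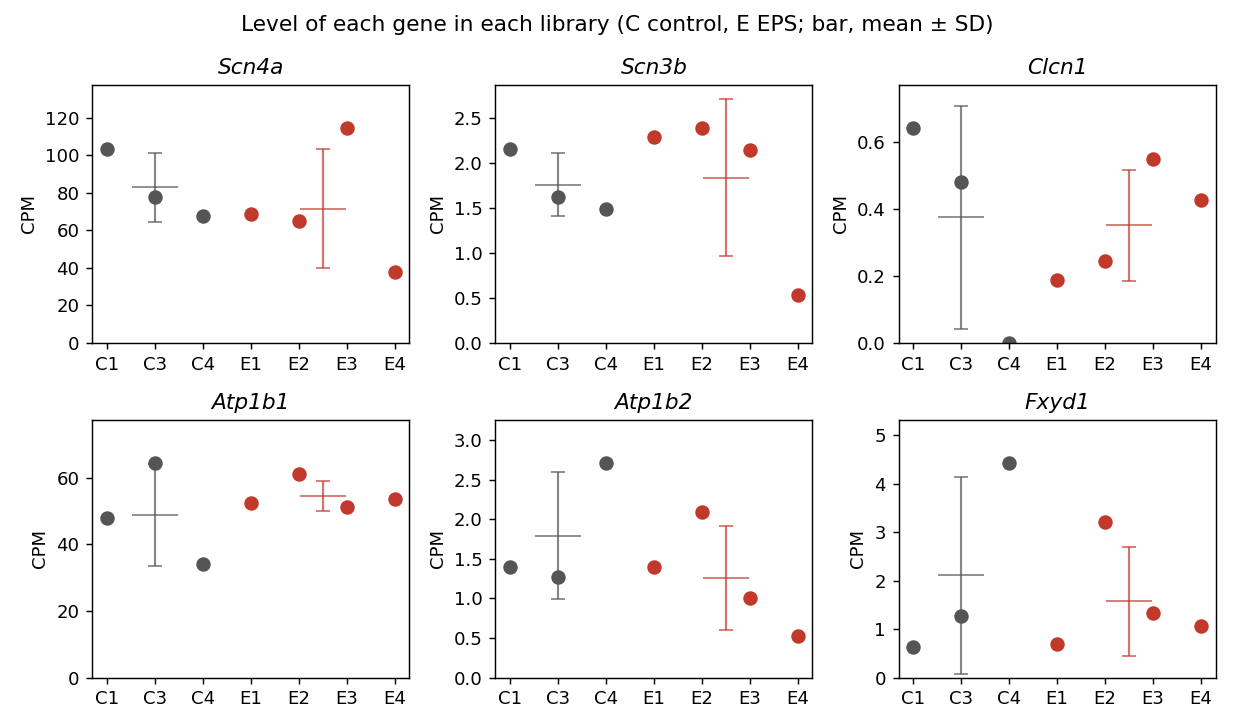
CPM of each of the 6 genes (linear axes from 0) in control replicates 1, 3 and 4 (grey) and EPS replicates 1 to 4 (red), with the mean and SD of each group. The groups overlap in every panel, and the low EPS value of Scn4a, Scn3b and Atp1b2 is that of EPS replicate 4.

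The fit covered all 19144 genes above 0 in at least 1 library. In limma, none of the 6 genes passed the call rule of the study's Results (unadjusted P below 0.01 with a change of over 2-fold), where 1.41% of all genes did. The study's Methods state a P under 0.001 instead, and none of the 6 genes passed with that threshold. None reached 0.05 after adjustment (0.141% of all genes) or before it (11.6% of all genes), and in none did the groups fail to overlap (10.6% of all genes). At these shares, a count of 0 among 6 genes does not set them apart. The counts by the call rule and at an unadjusted P under 0.05 were also 0 in edgeR and in DESeq2 on the recovered reads. Over all 19144 genes, 629 and 585 were called there, and 11.6% and 10.6% were at an unadjusted P under 0.05. In limma, 1 of the 6 genes had a higher value after EPS and 5 a lower one on the log2(CPM + 1) scale. Of all 19144 genes, 12123 were higher and 7021 lower. Scn3b, lower on this scale, had the higher mean CPM after EPS. The median log2 fold change of the 6 genes was -0.10, against 0.04 over all genes tested. Only for Scn4a was the sign the same under every one of the 17 other settings and library sets tried, from -0.55 to -0.03. These are not separate checks. The P under 0.001 and the filter at a mean of 1 CPM leave the fold change as it is. The replicate block gave the same value as leaving out EPS replicate 2 (-0.29). For Scn4a and Atp1b1, which are far above 1 CPM, the 95% intervals ran from 0.484 to 1.37 and from 0.825 to 1.60 times the control level, so both excluded a doubling and that of Atp1b1 also a halving. For Scn3b, Clcn1, Atp1b2 and Fxyd1, near or below 2 CPM, the CPM + 1 scale understates a change, and their intervals bound no fold of the level itself.

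**Figure D2:**
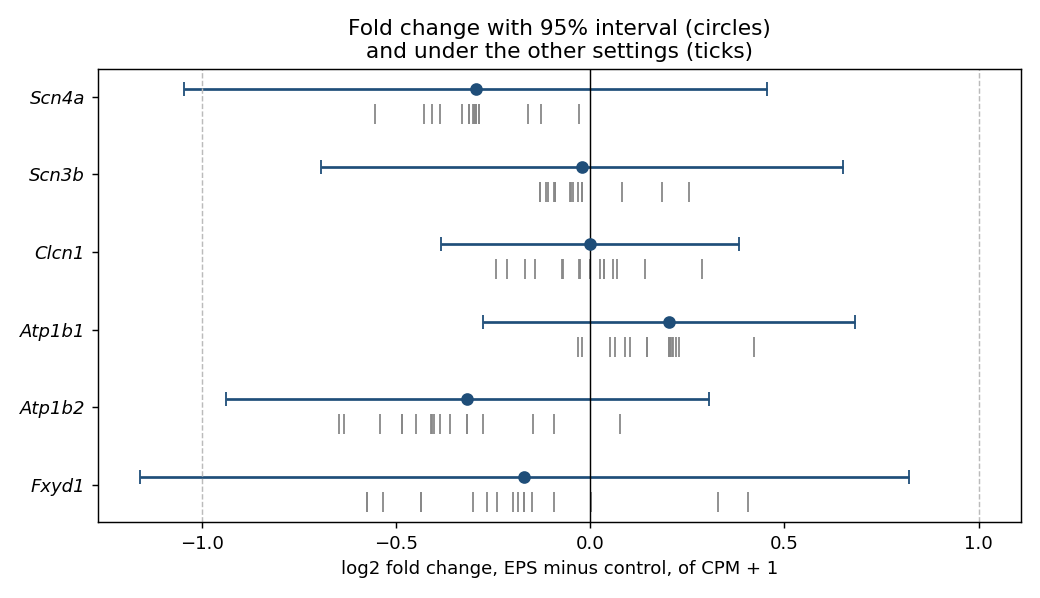
Log2 fold change (EPS minus control) of each of the 6 genes on the scale of CPM + 1. Circles with bars are the limma values with their 95% intervals, grey ticks the values under 17 other settings (16 for Clcn1), and dashed lines mark 2-fold. Every interval crosses 0, and the ticks of Scn4a alone stay on one side of it.

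To compare genes with each other, CPM were divided by the length of the merged exons of each gene in GENCODE M21. This merges all annotated transcripts (2 for Scn4a, 17 for Fxyd1) and can exceed the length of the RNA present. Levels per kb and their ratios between genes are therefore approximate. Atp1b1 was the most abundant of the 6 at 16.9 ± 3.21 CPM per kb (SD over the 7 libraries), followed by Scn4a at 10.9 ± 3.64. These neighbours overlapped in range, but Atp1b1 was above Scn4a in 7 of 7 libraries. Fxyd1 was at 0.826 ± 0.661 CPM per kb, Atp1b2 at 0.364 ± 0.175 and Scn3b at 0.330 ± 0.120. The order of these low genes was not stable, since Fxyd1 was above Atp1b2 in 5 of 7 libraries and Atp1b2 above Scn3b in 4 of 7. Clcn1 was last at 0.0665 ± 0.0417 CPM per kb and below Scn3b in every library.

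The genes were also set against other members of their families. Among the pump beta subunits, Atp1b3 was 4.57 times as high per kb as Atp1b1, and Atp1b1 was 46.6 times as high as Atp1b2, with the same order in all 7 libraries. Among the FXYD proteins, Fxyd6 was 6.14 times and Fxyd5 5.39 times as high per kb as Fxyd1, and both were above it in each library. Clcn1 was below Clcn7, the lysosomal exchanger, in each library. The beta subunit genes Scn2b and Scn4b were listed at 0 in every library.

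The ratio of Atp1b1 to Atp1b3 per kb was between 0.152 and 0.261 in the control and between 0.206 and 0.254 in the EPS group. None of 3 ratios within families (Atp1b1 to Atp1b3, Atp1b2 to Atp1b1, and Fxyd1 to Fxyd6), chosen after the values were seen, passed the test between the groups. Their exact permutation p-values were between 0.371 and 0.80, and 0.80 for each after adjustment over the 3. Such ratios do not depend on the scaling of the libraries.

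The other genes of these pathways were taken from 10 lists with 77 further genes, of which 68 were tested. None was called in limma, in edgeR or in DESeq2, where 269, 629 and 585 of all 19144 genes were. After adjustment none was below 0.05 in limma or edgeR and 1, Sik1, was in DESeq2. Over all genes these adjusted counts were 27, 290 and 497, so the counts among the 68 do not set them apart. Before adjustment, 3 of the 68 were below 0.05 in limma, where 11.6% of all genes were. All 3 had lower values after EPS, and 3.21% of all genes were both lower and at such a P. The count was 7 in edgeR (11.6% of all genes) and 5 in DESeq2 (10.6% of all genes). In 5 of the 68 the groups did not overlap, where 10.6% of all genes did not. Of the 68 genes, 34 had a higher and 34 a lower value in the EPS group, where 12123 of all genes were higher and 7021 lower. The median log2 fold change of the 68 was 0.0059, against 0.04 over all genes tested.

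The most abundant genes of the lists were likewise not called. Among them, Gpd1l, a sodium channel modulator, was at -0.04 on the log2 scale (adjusted p = 0.921 from limma), and Clcn4-2, an intracellular exchanger of the CLC family, at -0.07 (adjusted p = 0.918 from limma). For Mbnl1, which regulates the splicing of the Clcn1 transcript, the log2 fold change was 0.33 (adjusted p = 0.637 from limma). Clic4 was at 0.20 (adjusted p = 0.793), Atp1b3 at 0.04 (0.936) and Fxyd6 at -0.29 (0.654), all from limma.

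The 3 genes at an unadjusted P under 0.05 (Camk2a, the most abundant of its list, and Sik1 and Camk2b, named after their values were seen) all encode kinases from the list of exchangers and pump regulators. Salt-inducible kinase 1 (Sik1), which has been tied to the regulation of the pump by intracellular sodium, was at 97.0, 67.8 and 96.9 CPM in the control and at 37.1, 52.9, 67.2 and 39.4 CPM in the EPS group. All EPS libraries lay below the control libraries, by a narrow margin between EPS replicate 3 and control replicate 3. Its log2 fold change was -0.84 (adjusted p = 0.214 from limma), under 2-fold, and it passed both thresholds only when control replicate 3 was left out. The adjusted p of Sik1 was 0.0265 in DESeq2 and 0.0528 in edgeR, and over all alternatives it was between 0.0265 and 0.591. Camk2a, a calcium and calmodulin dependent kinase, averaged 152 ± 21.3 CPM (SD, n = 3) without and 92.9 ± 26.5 CPM (SD, n = 4) with stimulation. Its log2 fold change was -0.75 (adjusted p = 0.279 from limma). Camk2b was at -0.72 (adjusted p = 0.390 from limma). The groups of Camk2a and of Camk2b did not overlap, and neither gene passed the adjusted test. With the replicate number as a block, the unadjusted P from limma was 0.0542 for Sik1, 0.0578 for Camk2a and 0.0678 for Camk2b. For Camk2b it was 0.120 without control replicate 1, 0.0638 without control replicate 4, 0.0697 without EPS replicate 1 and 0.0824 without EPS replicate 4. It stayed below 0.05 when any other single library was left out, as it did for Sik1 and Camk2a with any single library left out.

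**Figure D3:**
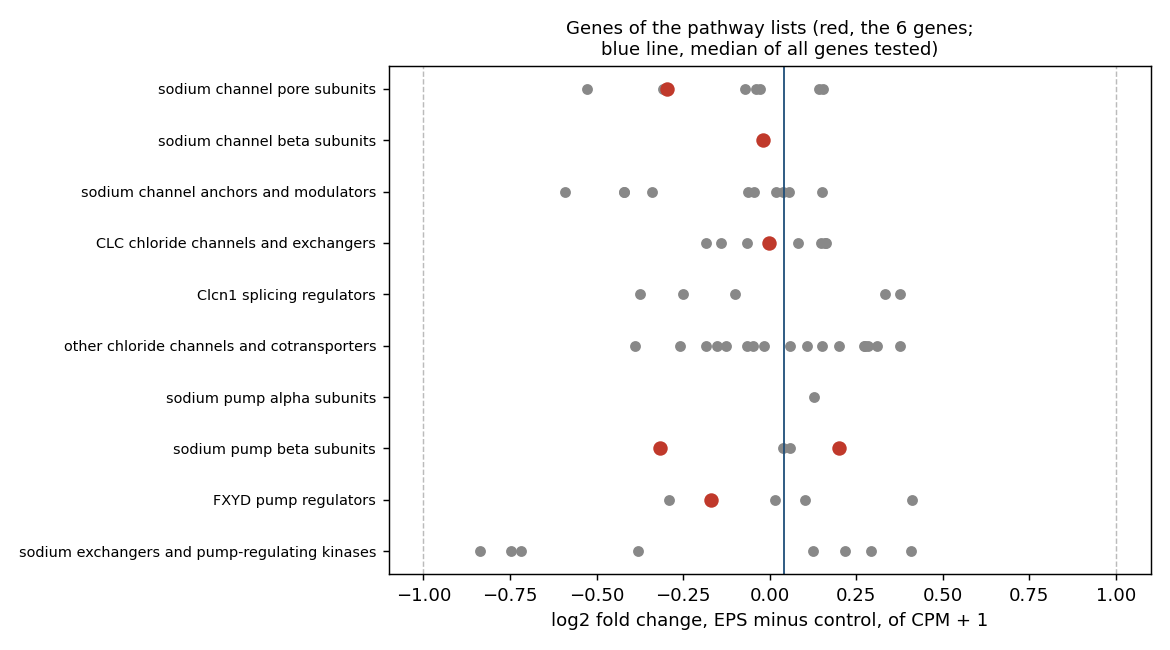
Log2 fold change (EPS minus control) of the tested genes of the 10 pathway lists that are reported here, with the 6 genes in red, a blue line at the median of all genes tested (0.04) and dashed lines at 2-fold. No gene reaches a dashed line, and the 3 values at the far left of the last list are Sik1, Camk2a and Camk2b.

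Genes whose level followed these 6 most closely were sought among the 12256 genes with a mean of at least 1 CPM, by the root mean square difference of centred log2(CPM + 1) over the 7 libraries. Clcn1 was below that mean. Near to Scn4a was Adcy9, an adenylyl cyclase, at a difference of 0.122, where the range of Scn4a itself was 1.58. Adcy9 was also highest in control replicate 1 and EPS replicate 3 and lowest in EPS replicate 4. The nearest to Atp1b1 were Mmgt1 and Ppp2r5c (0.0490 and 0.0510), to Scn3b Tnik and Sntb1 (0.131 and 0.176), to Atp1b2 BY080835 and Nog (0.0685 and 0.131), and to Fxyd1 Smpdl3a and 2300009A05Rik (0.117 and 0.122). With 7 libraries and this many genes, close matches arise readily, and they are a description only.

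Scn3b and Atp1b2 are best known from neurons and glia. Of the 5 neuronal markers, Snap25 and Syt1 were listed at 0 in every library and Rbfox3 was at or near 0, while Tubb3 and Syn1 were present. Syn1, which encodes a synaptic vesicle protein, passed the call rule, with 5.65 to 12.8 CPM in control and 23.95 to 36.59 CPM in EPS libraries, and was 1.57 higher on the log2 scale (adjusted p = 0.0896 from limma). The sum of the 5 was between 30.1 and 46.6 CPM in the control and between 59.7 and 79.9 CPM in the EPS group. The 6 Schwann and glial markers summed to between 1.40 and 2.05 CPM in the control and between 1.64 and 2.83 CPM in the EPS group. Their part in the levels of Scn3b and Atp1b2 was not tested.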

How the data were processed

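Libraries of poly(A) RNA from C2C12 myotubes were prepared with a strand-marking kit, and both fragment ends were read over 100 bp. The submitters' processing notes name STAR 2.5.4b and GRCm38. The deposited values are CPM, calculated by the authors for each library. The counter, the annotation, the strand setting and the treatment of multi-mapping reads are not given in the sources used here. The CPM are neither log-transformed nor quantile-normalized. In every library 100% of the values were whole multiples of 1 read (within 0.02 reads), so reads could be recovered.

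Groups were taken from the sample labels and replicate numbers from the titles. Values of log2(CPM + 1) were fitted with limma 3.58.1 (R 4.3.3, linear model, empirical Bayes with trend) over 19144 genes (those not at 0 throughout), with all 7 libraries, and p-values were adjusted by the Benjamini-Hochberg method over all of them. Single genes also received a two-sided exact permutation test of the mean CPM over all 35 assignments, whose smallest p is 0.0286. Alternatives were quantile normalization, a pseudocount of 0.1 or 0.5, scaling by median of ratios, a filter at a mean of 1 CPM, a P under 0.001, the replicate number as a block, each library left out in turn, and edgeR 4.0.16 and DESeq2 1.42.0 on the recovered reads. A count test was not the main one because the deposited unit is CPM. Leaving out control replicate 4 and EPS replicate 4 together was added after the data were seen. The scripts were tested on simulated data.

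The 6 genes and all lists were chosen with earlier results of these data known. Genes outside the 6 were named if they passed a threshold, were the most abundant of a list by mean CPM, or were the 2 nearest in pattern, and exceptions are stated. Clcn7, Fxyd5, Scn10a, Sik1 and Camk2b, the genes listed at 0 and the marker genes were named after their values were seen. Some genes that this rule names are not reported here. Of the 77 further pathway genes, all were found, 3 of them under older symbols. Coordinates and exon lengths are from GENCODE M21 on GRCm38, which may differ from the annotation used for counting.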

Additional observations from a re-analysis of the deposited data

Results flagged for a closer look

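In the EPS group, EPS replicate 4 stood apart for Scn3b, at 0.531 CPM where the other EPS libraries were between 2.15 and 2.39 CPM. It also stood apart for Tnik, named because its pattern was near that of Scn3b, at 6.80 CPM against 12.2 to 13.2 CPM. For 2300009A05Rik, named for its nearness to Fxyd1, EPS replicate 2 stood apart at 5.55 CPM against 1.86 to 2.44 CPM. These are 3 of 33 genes checked by the gap between the extreme library and its nearest neighbour over the range of the 4 libraries, and chance flags about 1 group in 20. Tnik and 2300009A05Rik were chosen for their likeness to Scn3b and Fxyd1, so the 3 are not independent of each other and their number is not to be read against that rate.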

How the results depend on the processing

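None of the 6 genes was called under any of the alternatives run. The log2 fold change of Scn3b turned positive without control replicate 1 (0.08), without EPS replicate 4 (0.25) and with control replicate 4 and EPS replicate 4 both left out (0.18). Clcn1 turned positive with pseudocounts of 0.1 (0.29) and 0.5 (0.025), with the replicate block (0.035), and when control replicate 1 (0.14), control replicate 3 (0.07) or EPS replicate 1 (0.058) or 2 (0.035) was left out. It could not be fitted at a minimum mean of 1 CPM. Leaving out control replicate 4 gave -0.031 for Atp1b1 and 0.33 for Fxyd1, and leaving out both number 4 libraries gave -0.022 for Atp1b1, 0.077 for Atp1b2 and 0.41 for Fxyd1. Fxyd1 was at 0.00073 without EPS replicate 1. When single libraries were omitted, the ranges were -0.55 to -0.03 for Scn4a, -0.13 to 0.25 for Scn3b, -0.22 to 0.14 for Clcn1, -0.03 to 0.42 for Atp1b1, -0.48 to -0.09 for Atp1b2 and -0.53 to 0.33 for Fxyd1. The cause was not tested.

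Over all genes, 269 were called in the limma fit. The count was 601 with a pseudocount of 0.1, 629 in edgeR, 585 in DESeq2, 106 at a P under 0.001, and between 209 and 325 with 1 library left out. Up-regulated genes were 185 and down-regulated 84 on the deposited scale, against 130 and 122 after quantile normalization and 134 and 120 when scaled by median of ratios. For genes averaging at least 1 CPM, the median change (log2) was 0.10, 0.0052 and -0.0048 on these scales, and the values of the 6 genes were lower on both alternative scales than on the deposited one. Of the other pathway genes, 0 to 1 were called with 1 library left out, the 1 being Sik1.

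The deviations of same-numbered libraries from their group means had correlations across genes of 0.25, -0.45 and 0.068 for replicates 1, 3 and 4, and the labels do not say that a number marks a shared culture, so the numbers were not taken to pair the libraries. With the replicate number as a block (3 pairs), 160 genes were called and 0 had an adjusted p under 0.05 from limma, with 1624 at an unadjusted P under 0.05. Scn3b, Atp1b2 and Fxyd1 had 10 to 98 reads in a library and Clcn1 0 to 12, and the part of counting error in their spread was not tested.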

Other observations

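Scn10a, a sodium channel pore best known from sensory neurons, was present in these myotubes at 13.5, 11.5 and 14.1 CPM in control replicates 1, 3 and 4. In EPS replicates 1 to 4 it was at 8.33, 11.8, 8.04 and 7.22 CPM. EPS replicate 2 lay above control replicate 3, so the groups overlapped, and the log2 fold change of -0.53 did not pass (adjusted p = 0.435 from limma, with p = 0.0857 in the exact permutation test). Scn8a and Scn11a were listed at 0 in every library.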
